A study of Mus musculus with 12 samples.

Results

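The 10 genes followed here act in endoplasmic reticulum (ER) protein folding and in the unfolded protein response (UPR) of mouse liver. They are Hspa5, Hsp90b1, Pdia4, Dnajb9, Dnajc3, Sdf2l1, Creld2, Ern1, Xbp1 and Herpud1. They came from a list of named genes that was matched to the Entrez identifiers of the count table, and all 10 were found among its 27179 genes. All 10 passed the filter on low counts. They were compared over 4 groups of livers that differed in diet and in the plasmids injected.

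The ER folds the proteins that a hepatocyte secretes, and the UPR is the set of signals that adjusts folding capacity to that load. Chaperones bind nascent chains, disulfide isomerases form and shuffle disulfide bonds, and chains that fail to fold are exported and degraded. Sensors in the ER membrane, among them IRE1 (encoded by Ern1), PERK and ATF6, are held inactive by the chaperone BiP (encoded by Hspa5) and switch on transcription of chaperone and degradation genes when unfolded protein accumulates. IRE1 acts by splicing the mRNA of Xbp1, which gene-level counts cannot show, so the values of Xbp1 below are total transcript.

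The male mice were 8 weeks old at the start. The study's methods call its mice C57/Bl3, while its account of this tumour model names a 129/Ola and C57BL/6 mixed background, and the sample labels give no strain. They ate chow (chow diet, CD) or a diet low in protein (LPD) for 1 week before the injection and stayed on that diet. On each diet, 3 mice were given empty vector (Vec, called WT in the sample titles) and 3 were given c-MET with β-catenin, meaning human c-MET and a β-catenin without its N terminus, which drive hepatocellular carcinoma together. The plasmids entered by hydrodynamic tail vein injection and a Sleeping Beauty transposase inserted them, a route by which only some hepatocytes take up DNA, so each library averages cells with and without the oncogenes. All 4 groups were killed when the CD c-MET/β-catenin mice reached their end point, and the study states that livers were taken in the afternoon after fasting.

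Libraries held 19476209 to 31990267 counts, and a member had between 249 and 60361 counts in any library. The sample labels give the cell type as hepatocyte but the tissue as liver. Hepatocyte markers summed to 107997 to 180552 CPM (counts scaled to a common library size) in the 12 libraries, and markers of other cells were present too. Plasma and B cells, which carry much ER, had a summed marker level of only 2.22 to 14.0 CPM, with Tnfrsf17 at 0 in 3 of the 4 groups. In bulk tissue, fewer cells of a type and less RNA per cell cannot be told apart. A second header line of the count table gives each column a dataset number, and these fall into 3 runs that the labels do not explain. CD c-MET/β-catenin replicates 1 and 2 are in run 1, run 3 holds LPD Vec replicate 1 beside CD Vec replicates 1 and 2, and the other 7 libraries are in run 2. Run 2 thus holds 1 library of CD Vec and 1 of CD c-MET/β-catenin, and every test within it assumes that these vary like the libraries of the LPD groups.

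ER stress genes are known for a short promoter element, and the stretches that hold it are shown here because the members were read as a common set. The elements searched were the ER stress element (ERSE), CCAAT and CCACG with 9 bases between them, the related ERSE-II, ATTGG and CCACG with 1 base between them, and the unfolded protein response element (UPRE), TGACGTGG. Both strands of RefSeq promoter windows (GRCm38.p6, 250 bases before to 50 after each start) were scanned, and all 10 members matched a window. An ERSE or ERSE-II was found for 5 of the 10 members, against 0.119% of 32851 windows with an ERSE and 0.0365% with an ERSE-II. No member window held the UPRE, which was found in 0.676% of all windows. Each stretch is written 5′ to 3′ on the strand of the gene, with the element in capitals.
Hspa5: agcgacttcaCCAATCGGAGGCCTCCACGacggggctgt
Hsp90b1: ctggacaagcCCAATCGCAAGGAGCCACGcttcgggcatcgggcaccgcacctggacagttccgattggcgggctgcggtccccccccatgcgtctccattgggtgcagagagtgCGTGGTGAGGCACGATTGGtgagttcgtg
Dnajc3: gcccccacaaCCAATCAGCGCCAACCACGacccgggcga
Creld2: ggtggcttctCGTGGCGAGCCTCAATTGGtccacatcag
Herpud1: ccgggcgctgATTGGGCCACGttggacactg
The Hspa5 stretch lies at chr2:34772015-34772053 on the plus strand, with its element 65 to 47 bases before the start. Hsp90b1 is on the minus strand at chr10:86705523-86705666 and holds 2 elements, the nearer of them reading on the opposite strand. The Dnajc3 stretch is at chr14:118937817-118937855 and that of Creld2, whose element also reads on the opposite strand, at chr15:88819510-88819548, both for genes on the plus strand. Herpud1, on the plus strand at chr8:94386367-94386397, was the member with the ERSE-II, 52 to 42 bases before its start. The windows of Pdia4, Dnajb9, Sdf2l1, Ern1 and Xbp1 did not hold these letters. Among the other ER folding genes listed, Calr, Canx, Pdia6, Dnajb11 and Ero1b held an ERSE or ERSE-II, as did Syvn1 and Derl3 among the degradation genes, while none was found in the listed genes of the other 6 groups that had a window.

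Levels differed widely between members. Per kilobase of annotated exon, Hspa5 had the highest mean over the 12 libraries at 289 ± 171 RPKM (reads per kilobase of exon scaled to library size, SD, n = 12), followed by Hsp90b1 at 264 ± 93.3 RPKM. Without CD Vec replicate 2, described next, the 2 genes stood at 241 ± 50.3 and 239 ± 38.1 RPKM (n = 11), closer than their spread. Herpud1 followed at 219 ± 136 RPKM, a value within the spread of both. Xbp1 at 120 ± 25.8 RPKM and Pdia4 at 109 ± 39.2 RPKM overlapped, as did Creld2 at 67.1 ± 89.2, Dnajc3 at 59.4 ± 16.01 and Sdf2l1 at 46.0 ± 38.3 RPKM. Without CD Vec replicate 2 Creld2 stood below Dnajc3, at 41.9 ± 17.9 against 56.0 ± 11.5 RPKM, and the Sdf2l1 mean was 35.7 RPKM. Dnajb9 had 29.1 ± 16.2 RPKM. The sensor Ern1 was the least abundant, at 6.73 ± 2.20 RPKM.

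**Figure D1:**
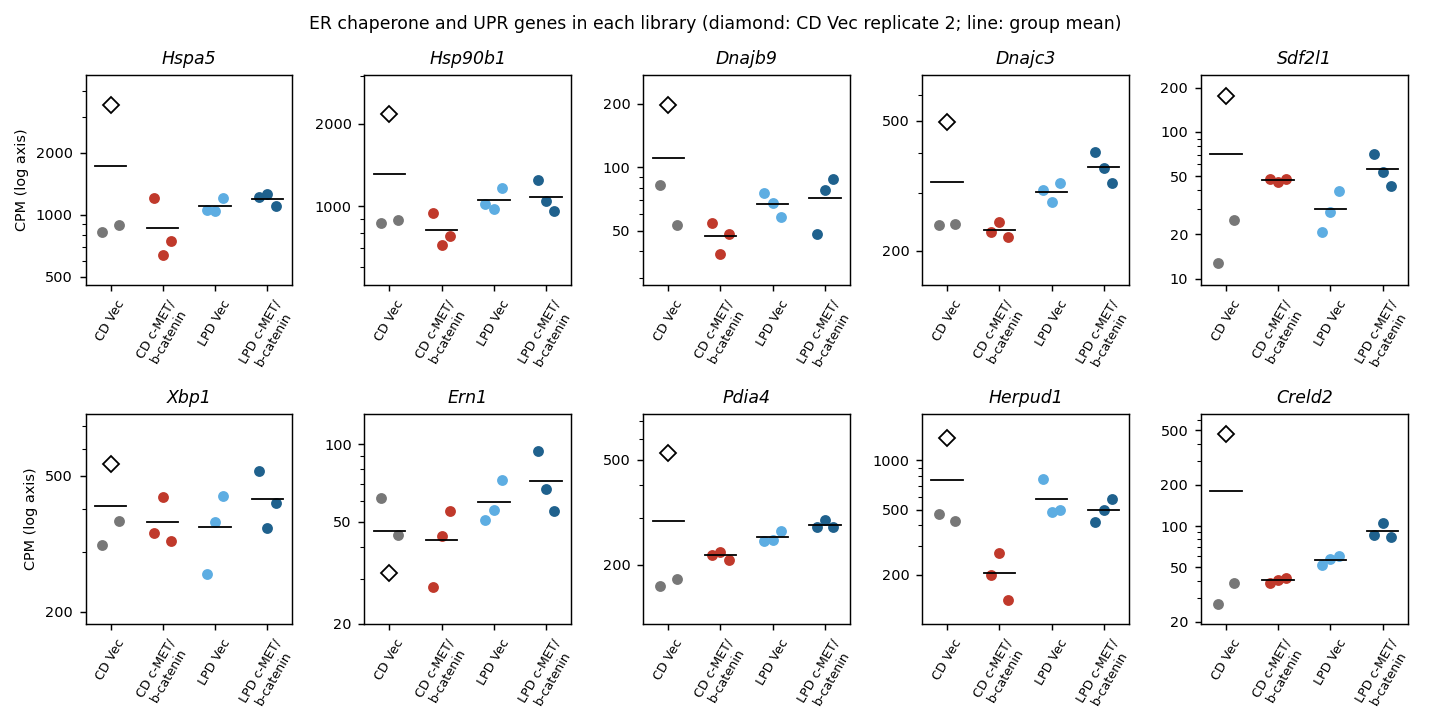
Level of each of the 10 genes in CPM on a log axis, with 1 point for each library, 4 groups of 3 libraries, and a line at the group mean. The diamond is CD Vec replicate 2, which lies above all other 11 libraries in 9 of the 10 panels and lowest of its group for Ern1.

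The vector control on chow was not a uniform group. CD Vec replicate 2 had the highest level of all 12 libraries for 9 of the 10 members, and for 8 of them it was more than 2-fold above both other CD Vec libraries. Among all tested genes 3.14% were that far above both and 6.998% that far below both, a share below that was 0.846% to 3.29% in the other 11 libraries. Creld2 was 14.5-fold and Sdf2l1 9.34-fold above the mean of the other CD Vec libraries. Hspa5 was 3.98-fold above it, and Pdia4, Herpud1, Dnajb9, Hsp90b1 and Dnajc3 were between 2.06-fold and 3.09-fold above it. Xbp1 was higher by 1.59-fold only, and Ern1 was the exception at 0.591 times the mean of the others. In no other library was a member more than 2-fold above or below both libraries of its group.

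**Figure D2:**
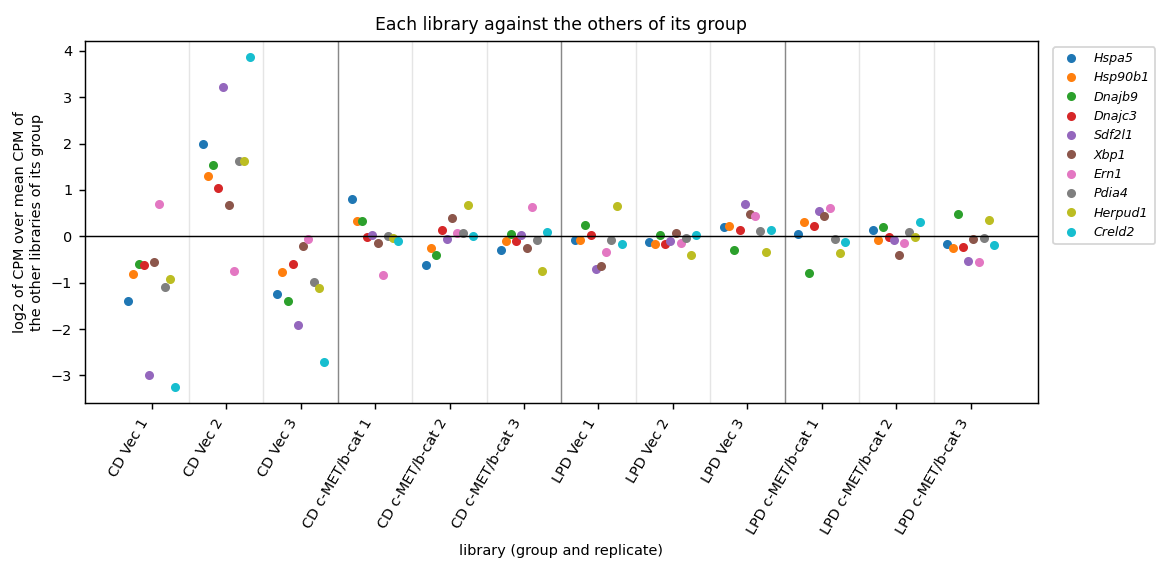
log2 of the CPM of each member in each library over the mean CPM of the other libraries of its group, with 10 genes per library. CD Vec replicate 2 lies up to 3.86 above 0, with Ern1 below 0, and since the others of that group are measured against it, most of their points lie below.

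Other genes moved with the members in this library. Of the ER folding factors, Manf, Hyou1, Dnajb11 and Pdia3 stood at 4.15, 3.26, 2.62 and 2.13 times the mean of the other CD Vec libraries. P4hb, Ero1a and Dnajc10 were below that mean, at 0.981, 0.914 and 0.765 times its value, and the other listed folding genes were at 1.08 to 1.68 times. Cytosolic and mitochondrial heat shock genes were also high, with 8 of 15 more than 2-fold above both other CD Vec libraries and a median log2 ratio of 1.61, and chosen after their values were seen, Hsph1 stood at 318 CPM against 56.7 and 57.4 CPM and Hspa8 at 875 CPM against 279 and 296 CPM. Of the listed degradation genes 2 of 19 were that far above both, with a list median of 0.31 on the log2 scale. Syvn1, the ubiquitin ligase of the ER membrane, had 756 CPM in CD Vec replicate 2 and 83.8 and 89.5 CPM in the others, and Derl3 had 33.5 CPM against 0.509 and 2.03 CPM. Of the PERK-ATF4 genes 2 of 9 were that far above both, with a list median of 0.35. Ddit3, which encodes the stress factor CHOP, had 34.4 CPM against 6.93 and 6.20 CPM. Others in these lists were lower in that library, with Chac1 at 0.472, Vcp at 0.757 and Trib3 at 0.795 times the mean of the other CD Vec libraries. The genes of this paragraph were singled out after their values were seen.

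Other lists and the depth of this library were compared in the same way. Hepatocyte secreted proteins had a median log2 ratio of 0.03, the genes of the translocon and of glycosylation 0.37, and UPR sensors and regulators 0.05, and no gene of these lists was more than 2-fold above both other libraries. Single genes came close, with Hp at 2.01, Sec11a at 1.92 and Apoa1 at 1.85 times the mean of the others. It had 20369103 counts, and the others had 21232900 and 20982400. Markers of other cells were at lower levels in it, with median log2 ratios of -1.18 for proliferation, -1.08 for endothelium, -0.998 for macrophages, -0.86 for neutrophils and -0.70 for plasma and B cells, beside -0.025 for all tested genes. Stellate, cholangiocyte and T and NK cell markers were at -0.27, -0.038 and 0.14. Its score of clock genes, the mean log2 level of late-day genes minus that of early-day genes, was 5.55, close to 5.17 and 5.22 in the other CD Vec libraries. The part of these values in the high ER genes was not tested. The comparisons below are therefore given from the fit of all 12 libraries and again from a fit without CD Vec replicate 2, called the 11-library fit, a choice made after its values were seen.

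Among the chaperones, Hspa5 stood at 827, 3432 and 897 CPM in CD Vec replicates 1, 2 and 3, at 1209, 640 and 750 CPM in CD c-MET/β-catenin, at 1057, 1039 and 1212 CPM in LPD Vec, and at 1221, 1268 and 1102 CPM in LPD c-MET/β-catenin. The LPD libraries lay close together, and the CD groups overlapped each other and the LPD groups. The oncogene effect on CD, meaning c-MET/β-catenin over Vec on the log2 scale, was -0.99 with an SE of 0.46 (adjusted p = 0.115), and in the 11-library fit it was -0.00082 with an SE of 0.23 (adjusted p = 0.998). Hspa5 was not called in any comparison.

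Hsp90b1, which encodes the ER chaperone GRP94, had 943, 720 and 778 CPM in the CD c-MET/β-catenin replicates, 1014, 975 and 1164 CPM in LPD Vec and 1241, 1047 and 963 CPM in LPD c-MET/β-catenin. CD Vec replicates 1 and 3 had 865 and 891 CPM, inside the range of CD c-MET/β-catenin, and replicate 2 had 2164 CPM. All 3 LPD c-MET/β-catenin libraries were above the 3 on CD, with a log2 difference of 0.41 and an SE of 0.30 (adjusted p = 0.366), or 0.41 with an SE of 0.15 (adjusted p = 0.0633) without CD Vec replicate 2. Its exons overlap a transcribed pseudogene on the other strand, and the strand setting of the counting is not given in the sources used here, so its counts may include reads from that locus.

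Pdia4, a protein disulfide isomerase, had 167, 532 and 177 CPM in CD Vec, 217, 225 and 210 CPM in CD c-MET/β-catenin, 246, 249 and 269 CPM in LPD Vec and 277, 296 and 279 CPM in LPD c-MET/β-catenin. Apart from CD Vec replicate 2 the groups lay in that order without overlap. With all libraries Pdia4 was not called in any comparison, and its effect of the oncogenes on CD was -0.43 with an SE of 0.35 (adjusted p = 0.363). In the 11-library fit that effect was 0.33 with an SE of 0.11 (adjusted p = 0.0357), and the difference between diets in c-MET/β-catenin livers was 0.38 with an SE of 0.09 (adjusted p = 0.0136). The diet effect in Vec livers without that library was 0.56 with an SE of 0.11 and did not pass (adjusted p = 0.0790).

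Creld2, an ER-resident protein with disulfide isomerase motifs, had 26.8, 472 and 38.1 CPM in CD Vec, 38.1, 40.2 and 42.0 CPM in CD c-MET/β-catenin, 52.1, 57.3 and 60.1 CPM in LPD Vec and 85.9, 105 and 83.5 CPM in LPD c-MET/β-catenin. The lowest LPD c-MET/β-catenin library was above all 3 LPD Vec and all 3 CD c-MET/β-catenin libraries. Between diets in c-MET/β-catenin livers the log2 difference was 1.19, with an SE of 0.81 in the fit of all libraries (adjusted p = 0.334) and an SE of 0.14 without CD Vec replicate 2 (adjusted p = 0.000534). That library is in neither of the groups compared, and the estimate was 1.19 in both fits. Leaving it out changed the shared estimate of the spread and also the number of genes tested, from 13947 to 14275. The oncogene effect on LPD was 0.69 in both fits (adjusted p = 0.867, and 0.0325 without the library).

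On CD the Creld2 estimate changed sign with that library. It was -2.16 with an SE of 0.83 (adjusted p = 0.0642) with it and 0.30 with an SE of 0.16 (adjusted p = 0.164) without it. DESeq2 returned no adjusted p for Creld2.

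Sdf2l1, an ER luminal protein that works with BiP and its co-chaperones, had 12.7, 176 and 25.0 CPM in CD Vec, 47.9, 45.9 and 48.0 CPM in CD c-MET/β-catenin, 20.9, 28.4 and 39.8 CPM in LPD Vec and 70.8, 53.4 and 43.0 CPM in LPD c-MET/β-catenin. The 3 CD c-MET/β-catenin libraries lay close together, above CD Vec replicates 1 and 3 and below replicate 2. The oncogene effect on CD was -0.59 with an SE of 0.72 (adjusted p = 0.554), and without CD Vec replicate 2 it was 1.32 with an SE of 0.33 and passed the test (adjusted p = 0.0130). On LPD all 3 c-MET/β-catenin libraries were above the 3 Vec libraries, with a log2 difference of 0.91 and an SE of 0.72 (adjusted p = 0.757), or 0.90 with an SE of 0.28 (adjusted p = 0.166) without that library.

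Dnajc3, the ER J-domain co-chaperone p58IPK, had 240, 496 and 242 CPM in CD Vec, 228, 245 and 220 CPM in CD c-MET/β-catenin, 306, 282 and 323 CPM in LPD Vec and 400, 360 and 324 CPM in LPD c-MET/β-catenin. All 6 LPD libraries were above the 3 CD c-MET/β-catenin libraries and above CD Vec replicates 1 and 3. The difference between diets in c-MET/β-catenin livers was 0.64 with an SE of 0.24 (adjusted p = 0.0789), and it passed without CD Vec replicate 2, at 0.64 with an SE of 0.11 (adjusted p = 0.00305). Within run 2, where CD c-MET/β-catenin has 1 library, it was 0.71 (adjusted p = 0.0411).

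Dnajb9, the J-domain co-chaperone ERdj4, had 82.8, 196 and 53.2 CPM in CD Vec, 54.7, 38.9 and 48.4 CPM in CD c-MET/β-catenin, 75.3, 68.1 and 58.3 CPM in LPD Vec and 48.1, 78.4 and 87.8 CPM in LPD c-MET/β-catenin. It fell by 1.22 on the log2 scale with an SE of 0.39 in c-MET/β-catenin against Vec livers on CD (adjusted p = 0.0317), although the highest CD c-MET/β-catenin library was above the lowest CD Vec library. In the 11-library fit the difference was -0.53 with an SE of 0.26 and was not called (adjusted p = 0.140). Within run 2, with 1 library against 1, it was -0.15 (adjusted p = 0.850), and leaving out any of the 3 CD c-MET/β-catenin libraries also ended the call (adjusted p between 0.0611 and 0.0958).

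The sensor gene Ern1 had 62.0, 31.5 and 44.6 CPM in CD Vec, 27.9, 43.9 and 55.3 CPM in CD c-MET/β-catenin, 50.8, 55.5 and 72.3 CPM in LPD Vec and 93.9, 67.3 and 54.9 CPM in LPD c-MET/β-catenin. The groups overlapped in every comparison. The largest difference was between diets in c-MET/β-catenin livers, at 0.77 with an SE of 0.29 (adjusted p = 0.0900). Its target Xbp1, which encodes the transcription factor made after IRE1 splicing, ran from 257 to 543 CPM over all 12 libraries with every pair of groups overlapping, and its log2 fold changes lay between -0.21 and 0.28 in the 4 pairwise comparisons, none of them called.

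Herpud1 was the only member called in 2 pairwise comparisons of the 12-library fit, while in the 11-library fit Creld2, Pdia4 and Herpud1 each had 2. It encodes an ER membrane protein that assembles the degradation complex around Syvn1. Its levels were 469, 1367 and 424 CPM in CD Vec, 201, 272 and 140 CPM in CD c-MET/β-catenin, 772, 480 and 497 CPM in LPD Vec and 419, 497 and 584 CPM in LPD c-MET/β-catenin. The 3 CD c-MET/β-catenin libraries were the lowest of all 12.

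On CD Herpud1 fell by 1.88 on the log2 scale with an SE of 0.42, to 0.271 times the Vec level (adjusted p = 0.00503). In the 11-library fit the fall was smaller, at -1.13 with an SE of 0.28, and still passed (adjusted p = 0.0102). Within run 2, where this sets 1 library against 1, it was -1.61 (adjusted p = 0.00877, from the spread of the LPD groups). On LPD the same contrast gave -0.22 with an SE of 0.41 (adjusted p = 0.924), with overlapping groups. Between diets in c-MET/β-catenin livers Herpud1 was 2.44-fold higher on LPD, a log2 difference of 1.29 with an SE of 0.42 (adjusted p = 0.0478). The call rested on a narrow margin, since leaving out single libraries ended it in 8 of 12 cases (adjusted p up to 0.129): CD c-MET/β-catenin replicate 1 or 3, or any LPD library. The difference was also 1.29 without CD Vec replicate 2 (SE 0.26, adjusted p = 0.00534), and within run 2, with 1 CD library, it was 1.83 (adjusted p = 0.00354). Herpud1 was the only member called by the test of any difference over the 4 groups (adjusted p = 0.0259, with 31.0% of all tested genes called).

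Whether the effect of the oncogenes on Herpud1 differs between diets was tested by the interaction, the log2 fold change on LPD minus that on CD. It was 1.66 with an SE of 0.58 and did not pass (adjusted p = 0.0968). DESeq2 gave 1.65 (adjusted p = 0.0312) and run 2, with 1 library in each CD group, gave 1.64 (adjusted p = 0.0327).

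Clock genes differed between the groups too, and their part in the Herpud1 values was not tested beyond the covariate fit given here. The clock score was 5.17 to 5.55 in CD Vec, 2.87 to 4.16 in LPD Vec and 2.98 to 3.78 in LPD c-MET/β-catenin, whereas in CD c-MET/β-catenin it was -0.11, 4.42 and 0.55 in replicates 1, 2 and 3. Herpud1 in these 3 libraries was 201, 272 and 140 CPM. With the score as a covariate, the Herpud1 effect on CD was -1.13 with an SE of 0.68 (adjusted p = 0.331) and the diet effect in c-MET/β-catenin livers 0.96 with an SE of 0.47 (adjusted p = 0.232). With a term for the header runs they were -1.75 (adjusted p = 0.0958) and 1.83 (adjusted p = 0.0816). With the header term 6.78% of all tested genes were called on CD and 4.43% between diets in oncogene livers. Run 2 holds libraries of all 4 groups, and the differences within it, given above, were -1.61 and 1.83.

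**Figure D3:**
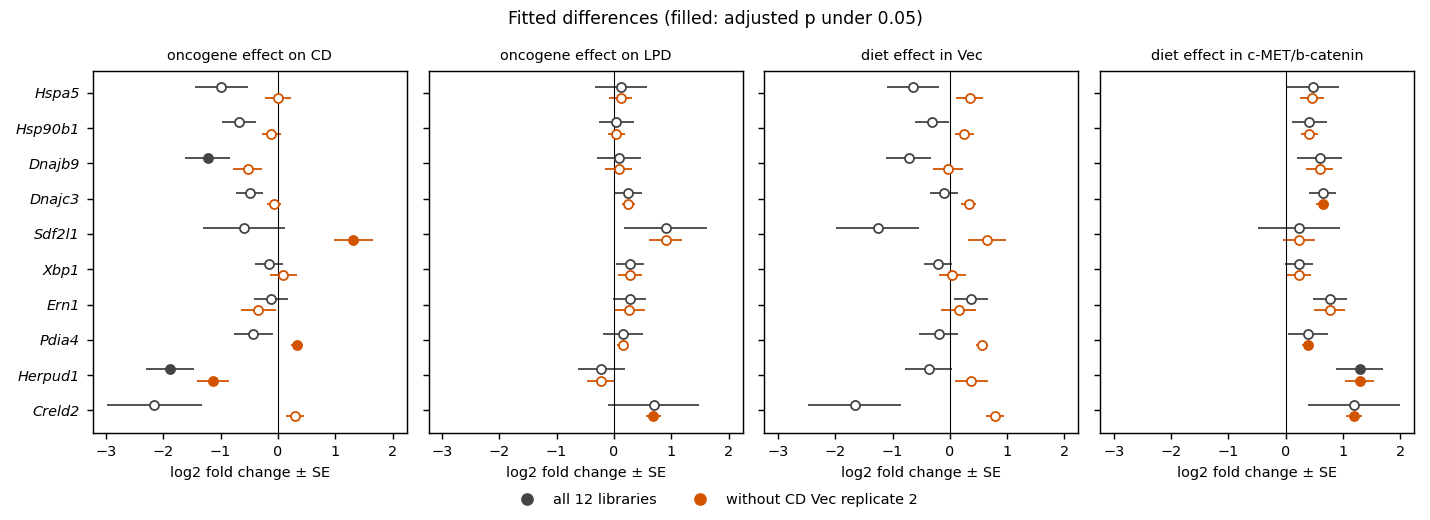
log2 fold change with its SE for the 10 genes in 4 comparisons, with all 12 libraries (dark) and without CD Vec replicate 2 (orange), filled where the adjusted p is under 0.05. Estimates that use CD Vec shift to the right without that library, except Ern1, while those of the other comparisons stay in place with shorter bars.

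Read over all members, the oncogene effect on CD was negative for 10 of 10 estimates, with a median of -0.64 beside -0.01 for all tested genes. Of the 10, 2 were called lower and 0 higher, while 35.4% of all tested genes were called, 16.7% lower and 18.7% higher. Only Herpud1 had groups that did not overlap, against 20.4% of tested genes lower without overlap and 22.2% higher. The 11-library fit gave a median of -0.03 beside 0.03 for all genes, 6 estimates were negative, and the calls were Herpud1 lower (15.9% of genes called lower) and Sdf2l1 and Pdia4 higher (17.9% called higher). Leaving out CD Vec replicate 1 instead gave 5 lower, with 14.4% of genes called lower, and leaving out replicate 3 gave 5 lower, with 14.7%. Within run 2, with 1 CD Vec and 1 CD c-MET/β-catenin library assumed to vary like the rest, Herpud1 was called lower (6.08% of genes called lower).

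On LPD, 0 of the 10 were called in edgeR's quasi-likelihood test of the oncogene effect, 0 had an unadjusted p under 0.05, and DESeq2 called 0. Of all tested genes, 1.32% were called, 11.1% had an unadjusted p under 0.05, and DESeq2 called 3.18%. Of the estimates 9 were positive, with a median of 0.20 beside 0.01 for all genes, and Dnajc3, Sdf2l1, Pdia4 and Creld2 were higher without overlap, as were 13.5% of tested genes. In the 11-library fit Creld2 was called higher, with 1.43% of genes called higher.

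The diet effect in Vec livers gave 0 calls among the members in edgeR, 0 with an unadjusted p under 0.05, and 0 in DESeq2, with 0.308% of tested genes called, 9.87% at the unadjusted p and 2.43% called by DESeq2. No member's groups were apart, against 8.13% of genes higher and 9.02% lower. The median was -0.34 beside -0.03 for all genes with 9 of 10 negative, and without CD Vec replicate 2 it was 0.34 beside -0.02 with 9 of 10 positive, so the direction of this comparison followed that library. Without it, 3 members had an unadjusted p under 0.05, as had 10.1% of genes, and 0 were called, with 0.0560% of genes called.

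Between diets in c-MET/β-catenin livers all 10 estimates were higher on LPD, with a median of 0.53 beside -0.01 for all tested genes. Herpud1 was called, and 20.0% of tested genes were called, with 8.66% called higher. Markers of other cells moved in the same comparison: proliferation genes were lower in 4 of 4 (median -2.23), stellate and fibroblast markers in 4 of 7 with 1 higher (median -1.86), neutrophil markers in 2 of 2 tested and cholangiocyte markers in 2 of 5, while endothelial markers were higher in 2 of 6 (median 0.54). Plasma and B cell markers were higher in 1 of 6 tested, with 6 of 6 estimates positive (median 0.85), and macrophage markers were lower in 1 of 7 (median 0.19). Of the T and NK cell markers 0 of 6 were called. Their summed levels in LPD against CD c-MET/β-catenin were 13.4 to 41.5 and 100 to 142 CPM for proliferation, 143 to 234 and 146 to 599 CPM for stellate cells and fibroblasts, 40.8 to 52.7 and 121 to 382 CPM for cholangiocytes, 5.67 to 14.0 and 2.40 to 5.69 CPM for plasma and B cells, 201 to 364 and 181 to 324 CPM for macrophages, and 156 to 208 and 103 to 156 CPM for endothelium. Neutrophil markers averaged 1.70 and 8.54 CPM. Their part in the values of the members was not tested. Hsp90b1, Dnajc3, Pdia4, Herpud1 and Creld2 did not overlap between the groups, and 19.2% of tested genes were higher without overlap. The 11-library fit called 4 higher, namely Dnajc3, Pdia4, Herpud1 and Creld2, with 11.5% of tested genes called higher. Within run 2, Dnajc3, Herpud1 and Creld2 were called higher (4.78% called higher), again with 1 CD c-MET/β-catenin library assumed to vary like the others.

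The interaction gave 0 calls among the members in edgeR and 4 with an unadjusted p under 0.05, namely Dnajb9, Dnajc3, Herpud1 and Creld2, and 8.91% of tested genes were called, while 25.8% had an unadjusted p under 0.05. DESeq2 called 1 of the 9 members for which it gave an adjusted p, and 13.8% of all genes for which it gave one. All 10 estimates were positive, with a median of 0.93. In the 11-library fit the median was 0.25, 8 were positive, 1 had an unadjusted p under 0.05 (25.9% of genes) and 0 were called (8.15% of genes). Within run 2 Herpud1 was called higher (1.59% called higher). These comparisons share libraries with each other, CD Vec entering 3 of the 5, and are not independent. Over the 4 groups, 5 members were called without CD Vec replicate 2, with 35.5% of genes called.

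Most members were correlated over the 12 libraries. Ern1 was not, with a median correlation to the others of -0.15 over 12 libraries and -0.50 within groups, but without CD Vec replicate 2 its medians were 0.41 and -0.0070. Over 12 libraries the median Pearson correlation of log2 CPM over the 45 pairs was 0.68, and of deviations from group means 0.75, with Pdia4 and Creld2 at 0.99 and 34 of 45 pairs over 0.5. Over the 11 libraries without CD Vec replicate 2 the median correlation was 0.43, with 19 of 45 pairs over 0.5. For the same 11 libraries the median within-group correlation was 0.08, and 7 of 45 pairs were over 0.5, the highest being Hspa5 with Hsp90b1 at 0.80, Sdf2l1 with Xbp1 at 0.70, Sdf2l1 with Creld2 at 0.68 and Pdia4 with Creld2 at 0.67. Dnajb9 ran against Sdf2l1 at -0.80. These are descriptions over 11 or 12 libraries that share depth and scaling.

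Genes outside the set whose pattern was most like Hspa5, among 9664 genes with a mean of at least 5 CPM, were Manf, an ER stress-induced secreted factor, with a correlation of 0.98, Atp2a2, the calcium pump of the ER, with 0.97, Pdia3, a disulfide isomerase for glycoproteins, with 0.96, the RNA-binding protein gene Hnrnpc with 0.96, and Zmiz2 with 0.95. Over the 11 libraries without CD Vec replicate 2, Manf kept the highest correlation at 0.94. Pdia3 stood at 0.91, Zmiz2 at 0.91, Atp2a2 at 0.89 and Hnrnpc, now at rank 29, at 0.85. Ranks 2 and 3 then went to Ubxn7 and Sumf1, both at 0.92, which had ranked 4586 and 2939 over 12 libraries. The member most like Hspa5 was Hsp90b1, at 0.97 over 12 and 0.90 over 11 libraries. The other members ranked from 36 (Creld2) to 7025 (Ern1) over 12 libraries, and from 272 (Dnajc3) to 3805 (Xbp1) over 11.

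The wider pathway was read through 8 lists of 128 genes. On CD, 40 of the 128 (31.2%) were called in the oncogene comparison, 14 higher and 26 lower, beside 35.4% of all tested genes. Of all tested genes 18.7% were called higher and 16.7% lower. The balance of directions among the pathway genes was not stable. The 11-library fit called 26 higher and 23 lower, beside 17.9% and 15.9% of all tested genes. Scaling by total counts alone, which moves the median of all genes to 0.28, called 37 higher and 13 lower. With that scaling 32% of all tested genes were called higher and 8.61% lower, so the directions of all genes moved too. Of the ER folding factors 3 of 22 rose and 4 fell, among them the oxidase Ero1b, which fell by 1.49, the proline isomerase Fkbp11, which rose by 1.05, and the BiP exchange factor Hyou1, which fell by 1.23. The oxidase Ero1a was called at 1.91, mostly from 1 library. CD c-MET/β-catenin replicate 1 had 122 CPM, replicates 2 and 3 had 16.8 and 16.7 CPM and CD Vec 13.8 ± 1.03 CPM (SD, n = 3), and without replicate 1 the difference was 0.27 (adjusted p = 0.199). In CD Vec replicate 2 Hyou1 had 684 CPM against 194 and 225 CPM, and the 11-library fit put it at -0.43 (adjusted p = 0.0271).

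The counts of this paragraph stand beside 16.7% of all tested genes called lower on CD and 18.7% called higher. Of the degradation genes 5 of 19 fell and 0 rose, with Syvn1 at -2.16 and Derl2 at -0.97. Of the ER to Golgi transport genes 5 of 16 fell and 1 rose. Among them were the cargo receptor Lman1 at -0.96, Sec23b of the COPII coat at -0.82 and the retrieval receptor Kdelr3 at 3.03, or 2.40 without replicate 1 of the CD oncogene livers. Kdelr3 was near the floor in CD Vec, at 0.204, 0.227 and 0.364 CPM in replicates 1, 2 and 3. Syvn1 was at -0.33 and not called in the 11-library fit (adjusted p = 0.0724). Leaving out single libraries ended the calls of Hyou1, Fkbp11, Srpr, Hspe1 and Ahsg as well, and of Syvn1 without any 1 of the CD c-MET/β-catenin libraries. The heat shock list had 5 of 15 lower and 0 higher, with Dnaja1 at -0.88 (-0.55 and not called in the 11-library fit, adjusted p = 0.0754) and Hspe1 at -0.77, and a median of -0.65. Without CD Vec replicate 2 the heat shock median was 0.02, with 3 lower and 1 higher and 8 of 15 estimates positive. The degradation list then had 4 lower and 1 higher. In that fit 15.9% of all tested genes were called lower and 17.9% higher.

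Of the 9 genes of the PERK-ATF4 branch 4 rose, 1 fell and 4 were not called on CD, where 18.7% of all tested genes were called higher. Among them were the stress factor Atf3 at 4.13 and the transcriptional regulator Nupr1 at 3.43. Both started from low levels. CD Vec replicates 1, 2 and 3 had 1.78, 3.70 and 1.04 CPM of Atf3 and only 0.509, 0.569 and 0.364 CPM of Nupr1. Atf3 was at 2.88 without replicate 1 of the CD oncogene livers and at 4.73 without CD Vec replicate 2, and was called in both, while Nupr1 ran from 3.17 to 3.63 with single libraries left out. Ppp1r15b, whose product helps to dephosphorylate the initiation factor eIF2α, fell by 0.74. The list median was 0.53 with CD Vec replicate 2 and 0.95 without it, and without it 6 rose and 1 fell. Sensors and regulators had 1 of 12 higher, Creb3l2 at 0.80 (0.49 and not called, adjusted p = 0.133, once replicate 1 of the CD oncogene livers was left out), and 2 lower, Creb3l3 at -0.81 and Tmbim6 at -0.48. In that list the 11-library fit called 3 higher, namely Eif2ak3, Creb3 and Traf2, and the same 2 lower, with Creb3l2 at 0.64 and not called (adjusted p = 0.0953). The translocon and glycosylation list had 1 of 23 higher, Ostc at 0.48, and 1 lower, Srpr at -0.39. Without CD Vec replicate 2 it had 6 higher and 1 lower, its median moving from 0.05 to 0.27. In that fit 17.9% of all tested genes were called higher and 15.9% lower. With total counts alone the list had 9 higher and 0 lower, beside 32% of all tested genes higher and 8.61% lower. Secreted hepatocyte proteins had 4 of 12 higher, led by Hp at 0.76, whose call was lost in 11 of 12 fits that left out a library, and Ahsg at 0.75, and 3 lower, led by Apoa2 at -1.26 and Ttr at -0.87.

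Markers of other cells moved with the same comparison. Proliferation genes summed to 2.33 to 9.95 CPM in CD Vec and reached 100 to 142 CPM with the oncogenes, with 4 of 4 called higher. Cholangiocyte markers summed to 121 to 382 CPM against 36.8 to 46.3 CPM with 2 of 5 called higher, and stellate and fibroblast markers to 146 to 599 CPM against 177 to 217 CPM with 5 of 7 higher and 1 lower. Neutrophil markers were higher in 2 of 2 tested (median 2.07), T and NK cell markers in 2 of 6 and macrophage markers in 1 of 7 (median 0.66), endothelial markers were lower in 2 of 6 (median -0.44), and of the plasma and B cell markers 0 of 6 tested were called. Their part in the values of the ER genes was not tested.

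**Figure D4:**
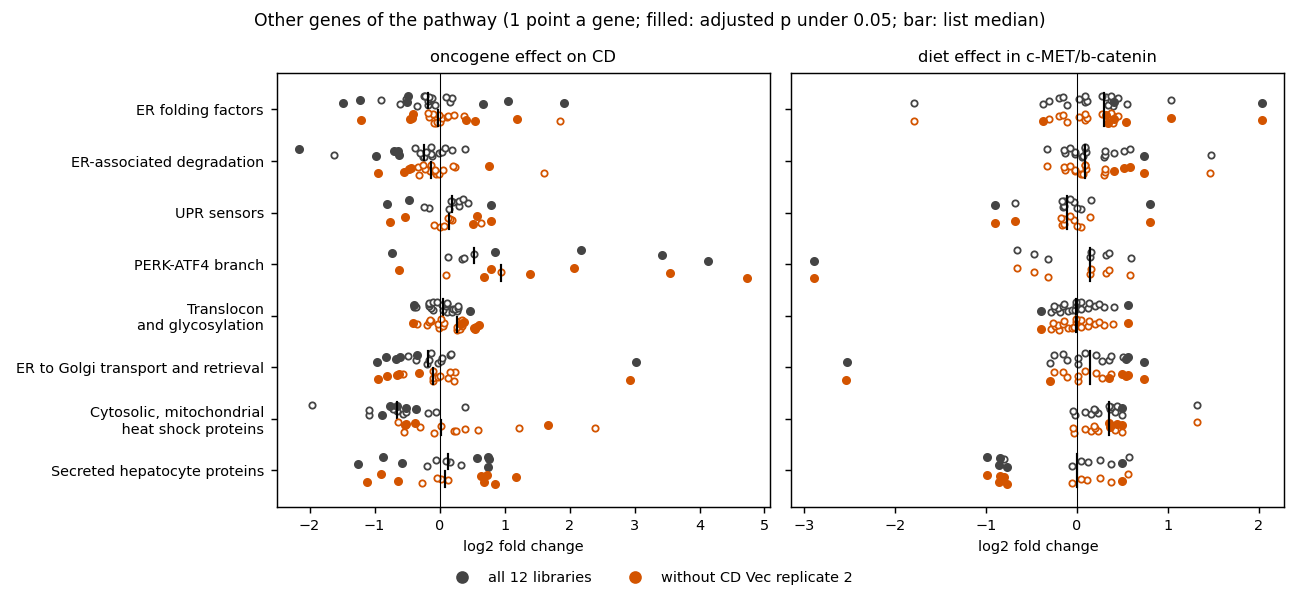
log2 fold change of each gene of 8 pathway lists in 2 comparisons, with all 12 libraries (dark) and without CD Vec replicate 2 (orange), filled where the adjusted p is under 0.05, with a bar at the list median. On CD the heat shock median moves from -0.65 to 0.02 without that library, and in the diet panel the medians are alike in both fits.

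Between diets in c-MET/β-catenin livers 18 of the 128 (14.1%) were called, 10 higher on LPD and 8 lower, beside 20.0% of all tested genes. Of the folding factors Ero1b was 2.03 and Erp44 0.41 higher, and the list median was 0.30. Derl2 of the degradation list was 0.74 higher, and of the transport list Lman1 was 0.73 and Sec23a 0.56 higher while Kdelr3 was lower, at -2.53 (-1.91 without replicate 1 of the CD oncogene livers and -3.21 when replicate 2 of the LPD oncogene livers was left out). Creb3l3 was 0.80 higher and Creb3l2 lower, at -0.90. Atf3 was lower, at -2.89, and was the 1 gene called of the PERK-ATF4 branch. It had 81.5 CPM in CD c-MET/β-catenin replicate 1 and 15.95 and 16.02 CPM in replicates 2 and 3, and without replicate 1 the difference was -1.65 and not called (adjusted p = 0.0647), while without LPD c-MET/β-catenin replicate 2 it was -3.63. Srpr was 0.56 higher and Ostc lower, at -0.40, Hspa9 was 0.49 higher, and of the secreted proteins Apob was 0.50 higher while Trf was lower, at -0.99, and Apoa1 at -0.86. The 11-library fit called 34 (26.6%, beside 25.6% of all genes), with 22 higher and 12 lower, and DESeq2 called 27 (21.1%, beside 21.0%). Leaving out single libraries of these groups also ended the calls of Erp44, Creb3l2, Ostc, Kdelr3, Hspa9, Apob and Apoa1.

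On LPD, 0 of the 128 pathway genes were called in the oncogene comparison by edgeR, beside 1.32% of all tested genes, and 2 (1.56%) by DESeq2, beside 3.18%. At an unadjusted p under 0.05, which 11.1% of all genes had, there were 3: Edem3 at 0.35 (adjusted p = 0.340), Nupr1 at 1.84 (adjusted p = 0.105) and Hspa9 at -0.33 (adjusted p = 0.287). In Vec livers the diet comparison called 1 of the 128 (0.781%, beside 0.308% of all genes), and DESeq2 called 2 (1.56%, beside 2.43%). The gene was Trib3, a target of ATF4, which stood at 6.22, 4.83 and 5.94 CPM on CD and 17.7, 17.2 and 31.95 CPM on LPD, a rise of 1.97 with an SE of 0.31 (adjusted p = 0.0262). All 3 LPD Vec libraries were above the 3 on CD. In the 11-library fit it was 1.87 and not called (adjusted p = 0.107), and leaving out CD Vec replicate 3 or LPD Vec replicate 2 or 3 ended the call as well (adjusted p between 0.0851 and 0.110). In the other lists the smallest p in Vec livers belonged to Ero1b at 0.54, Syvn1 at -1.75, Atf6b at -0.39, Srpr at 0.24, Sar1a at -0.25, Bag3 at -1.25 and Apoa2 at -0.49, with adjusted p between 0.312 and 0.569.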

How the data were processed

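Total RNA of 12 snap-frozen livers, 4 groups of 3, was sequenced. The authors aligned reads with HISAT2 to mm10, counted reads per gene with featureCounts and deposited raw counts by Entrez identifier. Tool versions are not given in the sources used here. The sample labels describe ribosomal RNA depletion and the study's methods an mRNA kit. The chow columns of the table are named HPD, an abbreviation that the study uses for a separate high-protein diet. They were matched through the sample descriptions, which name the columns, and the titles of those samples say chow diet.

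Symbols were matched through RefSeq and GENCODE for 93.1% of 27179 genes. Counts were tested with edgeR 4.0.16 (R 4.3.3, limma 3.58.1) by glmQLFit and glmQLFTest with TMM factors and filterByExpr, which kept 13947 genes. The 12 libraries shared 1 fit, with Benjamini-Hochberg adjustment over all tested genes and a call at an adjusted p under 0.05. CPM used TMM-scaled library sizes, and RPKM divided them by exon length. The labels only name replicates as separate samples, and the study describes mice. Scripts were tested on simulated data.

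Alternatives were DESeq2 1.42.0, other scaling, no filter, only the groups compared, a replicate block, a term for the header runs, run 2 alone, the clock score as a covariate, and leaving out each library. The fit without CD Vec replicate 2 was described in full after its values were seen, and leaving out libraries for single pathway genes and the shares of all genes and member correlations under other settings were likewise added after seeing the data. The members and gene lists were chosen with earlier results of these data known. Named genes were the 10 members, from each list and pairwise comparison up to 2 called genes with the largest positive and 2 with the largest negative change, or else the 1 with the smallest p, and the 5 genes most like Hspa5. RefSeq promoter windows were read from a table of GRCm38.p6. Transcript splicing and protein sequences were not analysed here.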

Additional observations from a re-analysis of the deposited data

Results flagged for a closer look

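The effect of the oncogenes differed between diets for 6 genes of the pathway lists, by the interaction term in edgeR (log2 fold change on LPD minus that on CD). They are 4.69% of the 128 genes, below the 8.91% of all tested genes that were called, whereas DESeq2 called 22 of the 128, or 17.2%, above the 13.8% of all genes that it called. None of the 10 members passed this test. The difference was 1.49 for Ero1b (adjusted p = 0.00913), 0.96 for Creb3l3 (adjusted p = 0.0176), 0.63 for Sec23a (adjusted p = 0.0365) and 0.71 for Lman1 (adjusted p = 0.0384). It was -2.63 for Trib3 (adjusted p = 0.00621) and -1.14 for Ahsg (adjusted p = 0.0485). Without CD Vec replicate 2, Ero1b, Creb3l3, Trib3 and Sec23a were still called, at 1.21, 0.92, -2.52 and 0.67, while Lman1 at 0.69 (adjusted p = 0.0511) and Ahsg at -1.24 (adjusted p = 0.0508) were not. Leaving out single libraries ended the call of Sec23a in 10, Lman1 in 10, Ahsg in 11 and Creb3l3 in 2 of 12 cases, and of Ero1b and Trib3 in none. Within run 2, which holds 1 library of each CD group, Creb3l3 was called at 1.24 (adjusted p = 0.0399), while Ero1b at 1.18 (adjusted p = 0.0569), Trib3 at -2.27 (adjusted p = 0.116), Sec23a at 0.83 (adjusted p = 0.101), Lman1 at 0.61 (adjusted p = 0.308) and Ahsg at -0.76 (adjusted p = 0.358) were not.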

How the results depend on the processing

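Leaving out CD Vec replicate 2 changed the sign of 8 of 10 member estimates for diet in Vec and of 4 of 10 for the oncogene effect on CD, and for the other changes below the cause was not tested. Of 1040 alternative values for single members, 948 had the same direction and the same side of the threshold, 26 lost and 19 gained a call, and 47 changed sign. Members called for the oncogene effect on CD, 2 in the report, were 1 with total counts only, no filter, only the groups compared or run 2, and 0 with the header term or the clock covariate, and leaving out single libraries gave 1 to 5, with 1 on leaving out each CD c-MET/β-catenin library in turn. The share of all tested genes called there moved too, from 35.4% to 6.78% with the header term, 11.7% with the clock covariate, 12.1% in run 2, 22.2% with only the groups compared, 23.2% with no filter and 40.7% with total counts only. On LPD, 0 became 1 with only the groups compared (3.80% of all genes, against 1.32%), and 0 to 1 with libraries left out (1 without CD Vec replicate 2). For diet in c-MET/β-catenin, 1 became 0 with RLE factors, total counts only, no filter, the header term or the clock covariate, 3 with only the groups compared or run 2, and 0 to 4 with libraries left out, while the share of all genes went from 20.0% to 4.43% with the header term, 11.5% with the clock covariate, 11.9% in run 2, 12.8% with no filter, 16.3% with only the groups compared, and 11.1% to 25.6% with libraries left out. The interaction went from 0 to 1 in run 2 (2.70% of all genes, against 8.91%) and in DESeq2 (13.8%), and 0 to 1 with libraries left out (1 without CD Vec replicate 1). The test over the 4 groups went from 1 to 0 with the header term (6.30% of all genes, against 31.0%) or the clock covariate (14.7%), 3 in run 2 (14.3%), 2 in DESeq2 (32.7%), and 0 to 5 with libraries left out (0 without CD c-MET/β-catenin replicate 1 or 3, 2 without CD Vec replicate 1 or 3, 5 without CD Vec replicate 2).

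Pathway counts also moved in run 2, on CD, on LPD, for diet in Vec and for the interaction. Fewer samples entered there, with 1 library in each CD group, and the shares of all tested genes moved too, so those counts are not read here. Without CD Vec replicate 2 the pathway counts were 0 for diet in Vec (0.0560% of all tested genes) and 34 in the diet comparison of oncogene livers (25.6%). The median within-group correlation of the members was then 0.081. The adjusted p of Herpud1 for diet in c-MET/β-catenin was 0.0502 with RLE factors, 0.0508 with total counts only and 0.0775 with no filter.

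Same-numbered libraries did not deviate together (correlations -0.179 to 0.158, with 2 of 12 libraries correlating best with their own number). No pairing by number was seen, but with 3 libraries a group these correlations cannot exclude it. With the replicate number as a block, 1 member was called on CD (32.4% of all tested genes), 0 on LPD (1.08%) and 0 for diet in Vec (0.115%). For diet in c-MET/β-catenin 1 was called (17.1% of all genes), for the interaction 0 (5.82%) and over the 4 groups 1 (26.7%). Dnajb9 on CD was -1.10 (adjusted p = 0.0648) under the block.

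Leaving out single libraries changed signs as follows. The effect on CD ran from -1.08 to 1.32 for Sdf2l1, -0.32 to 0.091 for Xbp1, -0.36 to 0.15 for Ern1, -0.70 to 0.33 for Pdia4 and -2.65 to 0.30 for Creld2. On LPD it ran from -0.065 to 0.12 for Hsp90b1, -0.087 to 0.31 for Dnajb9 and -0.35 to 0.029 for Herpud1. For diet in Vec it ran from -0.96 to 0.35 for Hspa5, -0.53 to 0.25 for Hsp90b1, -0.27 to 0.33 for Dnajc3, -1.74 to 0.65 for Sdf2l1, -0.39 to 0.043 for Xbp1, -0.47 to 0.56 for Pdia4, -0.64 to 0.38 for Herpud1 and -2.16 to 0.79 for Creld2. The interaction ran from -0.41 to 1.98 for Sdf2l1 and -0.17 to 0.85 for Pdia4.

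In run 2 the effect on CD was 0.93 for Sdf2l1, 0.30 for Ern1, 0.23 for Pdia4 and 0.13 for Creld2, that on LPD 0.029 for Herpud1, and that of diet in Vec 0.32 for Hspa5, 0.25 for Hsp90b1, 0.24 for Dnajb9, 0.31 for Dnajc3, 0.44 for Sdf2l1, 0.11 for Xbp1, 0.54 for Pdia4, 0.19 for Herpud1 and 0.61 for Creld2. The interaction there was -0.22 for Sdf2l1, -0.13 for Ern1 and -0.10 for Pdia4. With total counts only, which moves the median of all genes by up to 0.28, Xbp1 was 0.14 and Ern1 0.16 on CD and Dnajc3 0.015 for diet in Vec. With the header term Ern1 was 0.17 on CD, Herpud1 0.10 on LPD, and Dnajc3 0.030 and Pdia4 0.020 for diet in Vec. With the clock covariate Xbp1 was 0.018 on CD and Herpud1 0.0016 for diet in Vec.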
